A study of Mus musculus with 18 samples.

Results

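Mouse embryonic stem cells can be directed to spinal motor neurons (MNs) in a few days, and RNA was sequenced at both ends of the step in which dividing progenitors become neurons. Control neurons on day 4 were set against day 2 progenitors across all genes, using 6 of the 18 RNA-seq libraries of the series, 3 from each group. In both groups embryoid bodies had received 1 µM retinoic acid (RA) and 0.5 µM smoothened agonist (SAG, which activates the Hedgehog transducer Smoothened) from day 0, and neither group received doxycycline (Dox). Day 2 progenitors came from the line Ainv15(iCre), and control neurons from the line Ainv15(iFlag.Hoxc6), which carries a single Dox-inducible Flag-tagged Hoxc6 transgene at the Hprt locus that was left off. Each group therefore stands for 1 line, and whole cultures were lysed, so that interneurons and any remaining progenitors were included with the MNs. The replicates were independent differentiations. The 2 groups were sequenced in separate runs (H2YVKBGXB for day 2, HV3T2BGX7 for control neurons), so line, run and day of culture cannot be told apart in any difference given here.

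In the ventral spinal cord, RA and Sonic hedgehog pattern dividing neuroepithelial cells, and the progenitors that express Olig2 give rise to MNs. As these cells leave the cell cycle, proneural factors and a code of LIM and homeobox proteins (Isl1, Lhx3, Mnx1) switch on the genes for acetylcholine as transmitter and for outgrowth of the axon toward muscle. Hox proteins, which are set along the body axis in the progenitors, later assign MNs to columns and muscles.

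The 6 libraries held between 26114986 and 31966163 counts, so that 3 counts, the floor used for bounds here, corresponded to 0.0939 to 0.115 CPM (counts scaled to a library of 1000000). That floor covers counting error only. Levels are CPM scaled by edgeR's TMM factors, differences are log2 fold changes of control neurons over day 2 progenitors with their standard error (SE), and p-values are from edgeR's quasi-likelihood test, adjusted over all 20944 genes tested. Pearson's r of replicate pairs across genes, which are not independent replicates, was between 0.964 and 0.993. Day 2 library 3 and control library 2 were the least like their replicates. Day 2 library 3 was highest in epithelial and floor plate genes and lowest in several early neuronal genes, and control library 2 was highest in genes of progenitors and of the cell cycle. In day 2 library 2 a single gene without a symbol took 5.76% of the counts. With day 2 library 3 and control library 2 both left out, 1464 genes were higher and 1169 lower at both thresholds defined next, against 1411 and 1219 with all libraries.

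At an adjusted p under 0.01, 4435 of the 20944 genes (21.2%) were higher and 4441 (21.2%) lower in control neurons. When a log2 fold change above 2 was also required, the thresholds of the study, 1411 genes (6.74%) were higher and 1219 (5.82%) lower. All 3 control libraries lay above all 3 day 2 libraries for 25.2% of the genes and below them for 25.0%. These shares are the background for every gene list below. Many genes tested had few counts. Among the 13295 with a mean of at least 1 CPM, 29.9% were higher and 28.0% lower at an adjusted p under 0.01. The shares of the Notch, retinoid, and BMP and TGF-beta lists below lie near these. So do the shares of higher genes in the lists for other transmitters, interneuron classes, glycolysis, and Polycomb and DNA methylation. The median log2 fold change over all genes was 0.00. Scaling of the libraries places this median near 0, so a change in total RNA per cell would not show in it. When only the 6 libraries were fitted, 3243 genes were higher and 2759 lower at an adjusted p under 0.01.

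**Figure D1:**
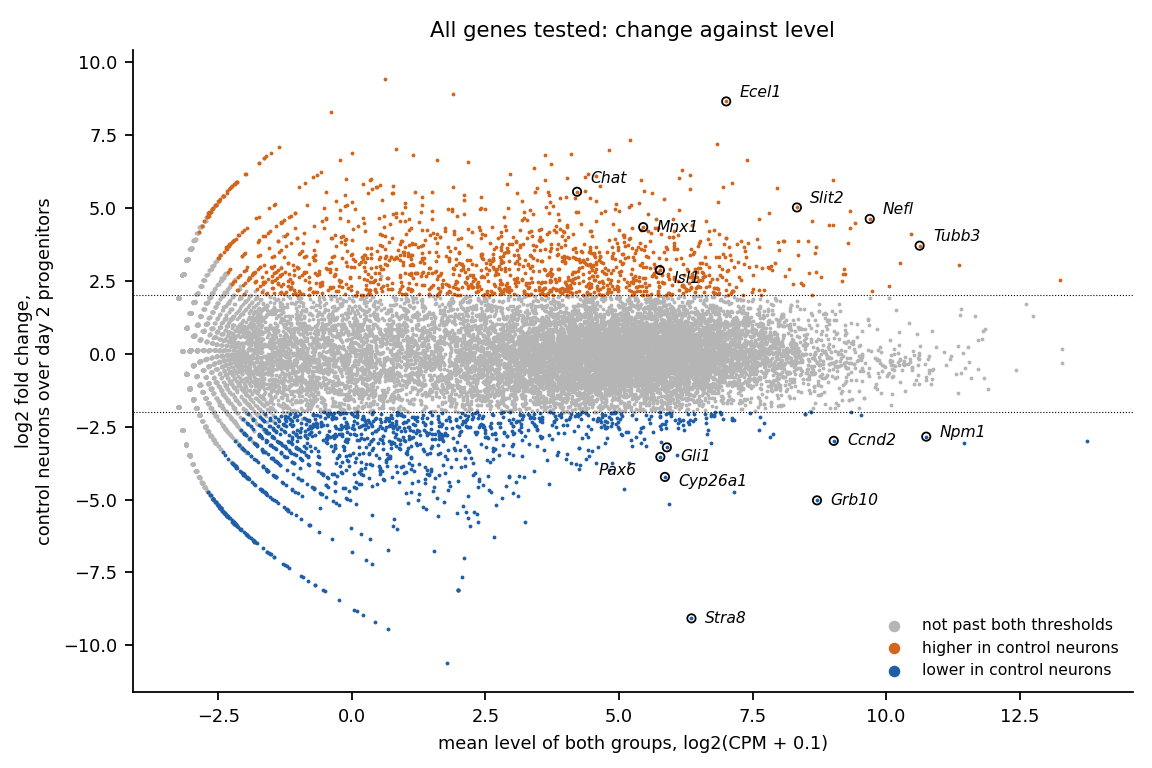
Log2 fold change of control neurons over day 2 progenitors (y axis) against the mean level of both groups, log2(CPM + 0.1) (x axis), with 1 point for each tested gene that had a count in these libraries. Orange and blue points passed both thresholds, dotted lines mark log2 fold changes of 2 and -2, and circles mark 14 genes, from Ecel1 at 8.65 to Stra8 at -9.07.

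The largest gain at a level of at least 10 CPM was that of Ecel1, a membrane metallopeptidase of neurons that is needed for motor axon branching at muscle. Its level was 0.404, 1.06 and 0.437 CPM in the day 2 libraries and 292, 207 and 270.2 CPM in the control libraries. The gene (chr1:87142874-87157085, GRCm38) rose by 8.65 ± 0.27 on the log2 scale (adjusted p = 6.36e-16), with no overlap between the groups. The granin Scg2, a cargo protein of dense-core vesicles, rose by 7.33 ± 0.28, and the immunoglobulin-domain membrane protein Islr2, which acts in axon growth, by 7.18 ± 0.23. Also among the 15 largest gains were the intermediate filament peripherin (Prph, 6.31 ± 0.26), the tyrosine phosphatase Ptpn5 (6.84 ± 0.31), the ubiquitin ligase Marchf4 (6.97 ± 0.32), the choline transporter-like gene Slc44a5 (6.17 ± 0.28) and the retinoid receptor Rxrg (6.50 ± 0.23). Of 747 genes that met the criteria for this ranking, 3 further neuronal genes just outside the 15 were chosen after their values were seen. They were Slc10a4, a protein of cholinergic vesicles (2.1 ± 1.47 and 137 ± 25.7 CPM in day 2 progenitors and control neurons, mean ± SD, n = 3), Sncg (16.2 ± 5.29 and 1014 ± 410.3 CPM) and the peptide precursor Uts2b (0.487 ± 0.48 and 31.8 ± 10.8 CPM).

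Stra8 had the largest fall at a level of at least 10 CPM. This gene is induced by RA and best known from the entry of germ cells into meiosis. It stood at 145, 119.5 and 226 CPM in day 2 progenitors and at 0.225, 0.231 and 0.449 CPM in control neurons, and it fell by 9.07 ± 0.33 on the log2 scale (adjusted p = 2.97e-15). Every control library was under 1 CPM. The peptidase Mme fell by 6.28 ± 0.43, the adaptor Grb7 by 5.76 ± 0.43, the tight junction protein Cldn6 by 4.77 ± 0.40, the protease inhibitor Spint1 of epithelia by 4.95 ± 0.41 and the monoamine oxidase Maob by 4.89 ± 0.30. Grb7, Cldn6 and Spint1 were highest in day 2 library 3. For Spint1 the day 2 levels were 7.92, 9.12 and 23.4 CPM.

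The 5 transcription factors of the MN list all rose, and all 5 passed both thresholds, with a median log2 fold change of 4.34. Mnx1, a homeobox factor that keeps MNs from taking an interneuron fate, was at 2.53, 5.26 and 4.53 CPM in the day 2 libraries and at 86.2, 72.7 and 91.1 CPM in the control libraries (4.34 ± 0.19, adjusted p = 3.81e-14). Isl1, the LIM factor that starts the MN program, was already at 14.2, 19.7 and 5.4 CPM in day 2 progenitors and reached 115, 76.4 and 94.8 CPM (2.87 ± 0.27, adjusted p = 8.43e-09). The lowest control library lay well above the highest day 2 library for both genes, and Isl1 was lowest in day 2 library 3. Lhx3, which forms a complex with Isl1, went from 4.46 ± 1.81 to 68.3 ± 0.56 CPM (3.94 ± 0.23). Lhx4 (1.75 ± 0.993 to 51.6 ± 4.56 CPM, 4.88 ± 0.25) and Isl2 (1.93 ± 1.14 to 45.4 ± 4.59 CPM, 4.56 ± 0.27), which act beside them, rose as well.

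The 4 cholinergic genes rose as well. Slc18a3, the transporter that loads acetylcholine into vesicles and that lies within the span of Chat, was at 4.75, 8.82 and 4.62 CPM on day 2 and at 196, 277 and 199 CPM in control neurons (5.21 ± 0.23, adjusted p = 2.97e-14). Acetylcholinesterase (Ache) rose by 5.50 ± 0.31, Chat, which makes acetylcholine, by 5.55 ± 0.30, and the choline transporter Slc5a7, the least abundant of them at 2.05 ± 0.991 CPM in control neurons, by 4.50 ± 0.53. The mean level of Chat, 36.2 CPM, and that of Isl1, 95.5 CPM, are not set against each other, since CPM does not account for gene length. The secreted guidance cue Slit2, which MNs use for their own axons, went from 18.1, 27.2 and 12.7 to 645, 682 and 547 CPM (5.02 ± 0.21), Slit3 rose by 3.32 ± 0.15 and the GDNF receptor Ret by 2.32 ± 0.13. Of the 15 MN genes, Stard13 alone did not pass the test (4.33 ± 0.0709 and 3.63 ± 0.38 CPM, adjusted p = 0.34).

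**Figure D2:**
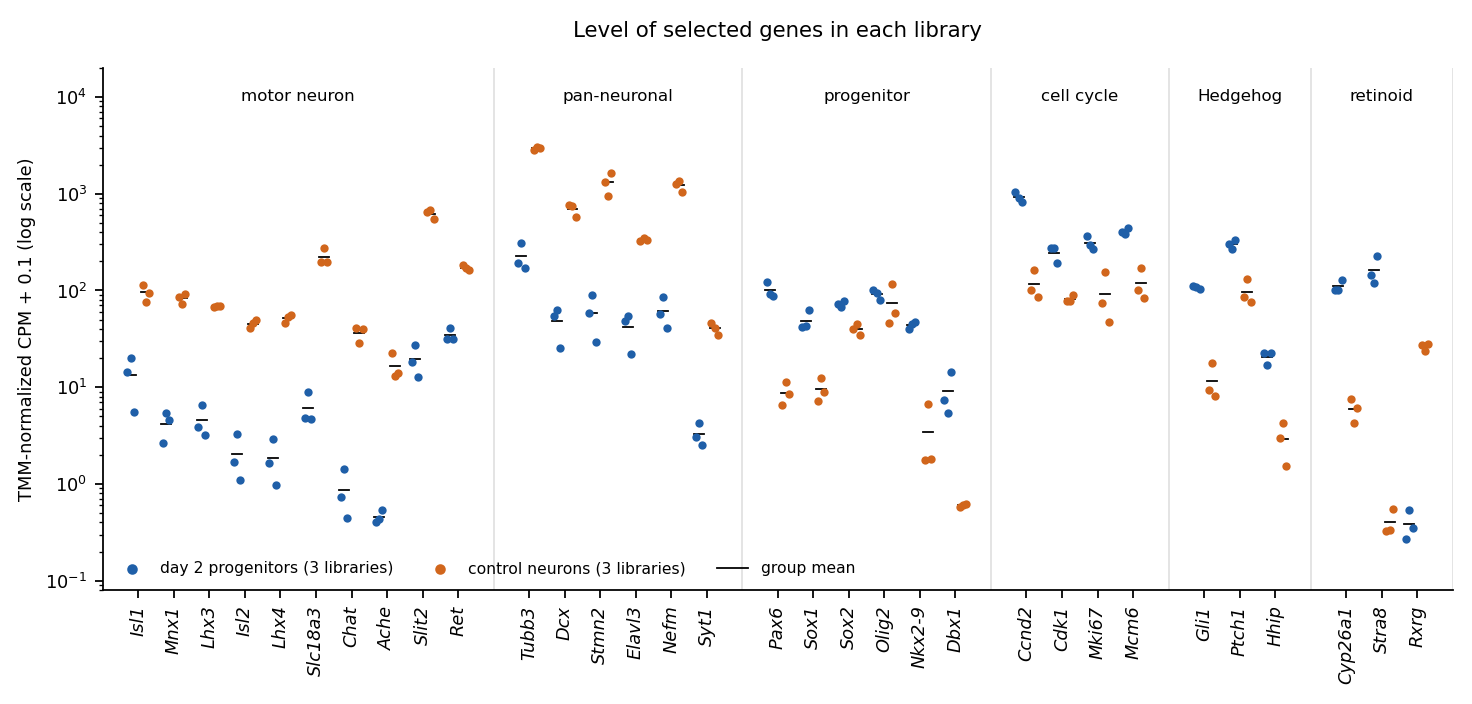
Level of 32 genes in each of the 6 libraries, as TMM-normalized CPM + 0.1 on a log axis (y), with genes on the x axis grouped by role. Each point is a library (blue, day 2 progenitors; orange, control neurons) and each bar a group mean; the groups are apart for every gene shown except Olig2.

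Genes that mark MN columns and pools did not move together. Of the 8 genes of the limb-innervating lateral motor column (LMC), 7 rose, with a median of 2.71. Aldh1a2, the RA-synthesizing enzyme of LMC neurons, went from 0.775, 0.532 and 0.812 to 35, 27.5 and 24.7 CPM (5.35 ± 0.28, adjusted p = 3.11e-13). Foxp1, the factor that sets LMC identity at high level, rose by 0.65 ± 0.18 only, from 36.6 ± 2.61 to 57.4 ± 15.2 CPM, and its adjusted p was between 0.0151 and 0.0578 without day 2 library 1 or 2 or control library 1. The motor pool factor Etv4 rose by 4.26 ± 0.25, Runx1 by 4.14 ± 0.40, Pou3f1 by 2.94 ± 0.21 and the lateral LMC factor Lhx1 by 2.48 ± 0.16, while Nkx6-1 did not pass the test (43.6 ± 9 and 47 ± 15.6 CPM, adjusted p = 0.69). None of the 5 genes for the median, hypaxial and preganglionic columns rose and 3 fell, among them Mecom (-1.51 ± 0.19). Of the 6 genes of cranial and visceral MNs 4 rose, none past both thresholds, and 2 fell, 1 of them by 1.73. The 6 genes summed to 67.07, 75.58 and 90.61 CPM in the day 2 libraries and to 46.16, 44.05 and 48.47 CPM in the control libraries. The homeobox factor Phox2a (1.25 ± 0.31, adjusted p = 0.0133 without day 2 library 1) and the T-box factors Tbx20 (1.98 ± 0.29) and Tbx2 (1.65 ± 0.26) rose.

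All 38 genes of the pan-neuronal list passed the test in the upward direction and 33 passed both thresholds, with a median of 3.48. Tubb3, the neuronal beta-tubulin, was at 194, 309.7 and 172 CPM in day 2 progenitors and at 2823, 3041 and 2951 CPM in control neurons (3.71 ± 0.23, adjusted p = 4.37e-12). Doublecortin (Dcx, a microtubule binding protein of migrating neurons) rose by 3.87 ± 0.29, the growth cone proteins Stmn2 and Gap43 by 4.47 ± 0.29 and 3.64 ± 0.23, and the neurofilament subunits Nefm and Ina by 4.33 ± 0.22 and 4.42 ± 0.20. In day 2 progenitors each of these 6 genes was lowest in library 3. Tuba1a was the most abundant gene of control neurons (16655 ± 2280.0 CPM), but its exons overlap another gene and its sequence is nearly identical to other copies, so its 2.54 ± 0.20 is uncertain. Among the 12 neuronal RNA binding genes, Celf3 rose by 3.95 ± 0.17, Rbfox3 (the NeuN antigen) by 3.59 ± 0.17, Elavl3 and Elavl4 by 3.02 ± 0.24 and 2.56 ± 0.22, and Nova1 by 1.49 ± 0.18.

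Genes for transmitter release rose too. Of 37 genes for synaptic vesicles and release, 35 rose and none fell (median 2.93). The calcium sensor Syt1 went from 2.96, 4.19 and 2.44 to 45.9, 41.2 and 34.7 CPM (3.67 ± 0.17), and the fusion proteins Snap25, Vamp2 and Stx1a rose by 3.47 ± 0.23, 2.93 ± 0.13 and 2.75 ± 0.15. Of the voltage-gated channel genes, 30 of 47 rose and 5 fell. The sodium channels Scn3a and Scn2a rose by 3.34 ± 0.37 and 3.17 ± 0.31, the N-type calcium channel Cacna1b by 3.48 ± 0.20 and the T-type channel Cacna1h by 3.34 ± 0.19, while the background potassium channel Kcnk1 fell by 3.29 ± 0.31. Kcna1, a channel of mature axons, was at 0.236, 0.299 and 0.312 CPM on day 2 and at 0.482, 0.308 and 0.299 CPM in control neurons (adjusted p = 0.455).

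Receptors for transmitters rose in 23 of 45 cases and fell in none. The nicotinic subunits Chrnb2 (13.8 ± 3.59 to 155 ± 1.98 CPM, 3.49 ± 0.15) and Chrna4 (2.16 ± 0.16) rose, but Chrna3, which was already at 39.1 ± 7.42 CPM in progenitors, was at 35 ± 8.1 CPM in neurons (adjusted p = 0.491). The AMPA receptor subunit Gria2 rose by 4.00 ± 0.43. The glycine receptor subunit Glra2 had 3 counts or fewer in each day 2 library and was at least 24-fold higher in control neurons. Of 16 genes that give a neuron another transmitter, 5 rose and none fell. The vesicular glutamate transporter Slc17a6 was at 0.337, 0.632 and 0.281 CPM on day 2 and at 0.225, 0.308 and 0.0748 CPM in control neurons, and the GABA-synthesizing enzyme Gad1 at 0.0337, 0.299 and 0.0312 and 0.353, 0.231 and 0.299 CPM, with overlapping libraries for both. Gad1 was highest on day 2 in library 2, and without it passed the test as higher (adjusted p = 0.0055). Th, the enzyme that starts catecholamine synthesis, rose. It stood at 0.707, 2.03 and 1.31 CPM in day 2 progenitors and at 107, 71.9 and 71 CPM in control neurons (5.94 ± 0.28, adjusted p = 8.15e-14).

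Axon guidance and adhesion genes rose in 42 of 63 cases and fell in 8, with a median of 1.65. The adhesion molecule Cntn2 (TAG-1), found on outgrowing motor axons, went from 36.9, 71.8 and 17.6 to 962, 1787 and 991 CPM (4.89 ± 0.38), and L1cam and Ncam1 rose by 4.21 ± 0.23 and 3.67 ± 0.24. The netrin receptors Unc5c and Dcc rose by 3.52 ± 0.28 and 2.59 ± 0.29, and the Slit receptors Robo1 and Robo2 by 1.88 ± 0.20 and 0.82 ± 0.22, although the adjusted p of Robo2 was between 0.0126 and 0.0167 without day 2 library 3, control library 1 or control library 2, and 0.0544 when day 2 library 3 and control library 2 were both left out. Among semaphorin receptors Nrp1, Nrp2 and Plxna4 rose by 2.43 ± 0.18, 2.18 ± 0.19 and 2.41 ± 0.29, and Plxna2 and Plxnd1 fell by 1.74 ± 0.20 and 1.12 ± 0.23. Epha4, which steers limb-innervating axons dorsally, rose by 1.16 ± 0.22. The low-affinity neurotrophin receptor Ngfr went from 12.3, 20.6 and 13.1 to 345, 375 and 409 CPM (4.62 ± 0.18, adjusted p = 7.54e-15).

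**Figure D3:**
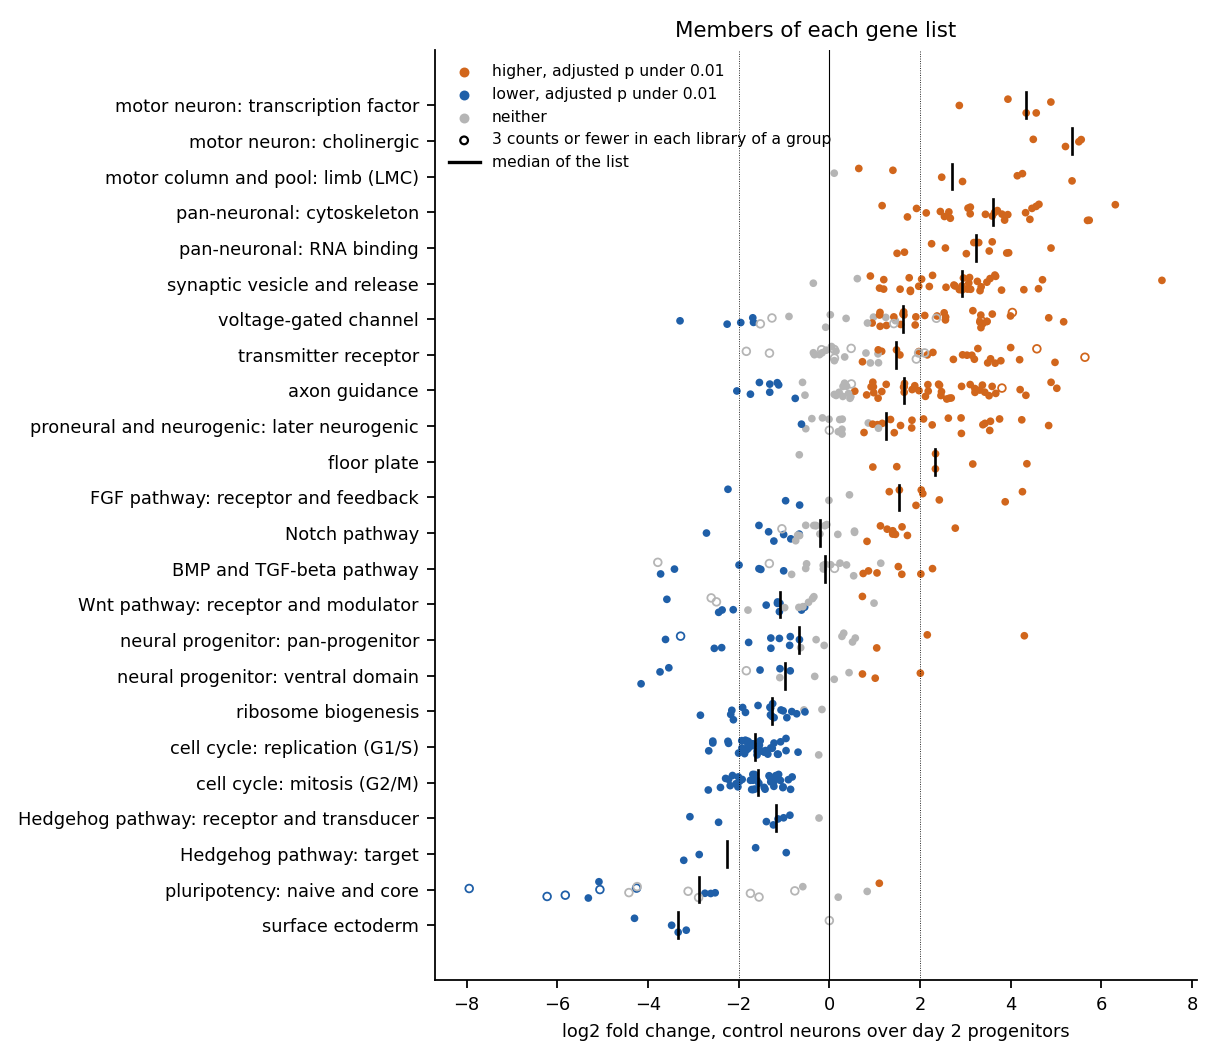
Log2 fold change of control neurons over day 2 progenitors (x axis) for every tested member of 24 gene lists (y axis). Orange points were higher and blue points lower at an adjusted p under 0.01, open symbols had 3 counts or fewer in each library of a group, and black bars mark list medians, which run from 5.36 for the cholinergic genes to -3.33 for surface ectoderm.

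Proneural and later neurogenic factors gave a mixed picture. Of the 8 proneural bHLH genes, 1 rose and 1 fell. Neurog2, the main proneural factor of MN progenitors, was at 34.9, 35.3 and 19.6 CPM on day 2 and at 37.5, 51 and 47.9 CPM on day 4 (0.60 ± 0.24, adjusted p = 0.0355), without passing the test, and Neurog3, with 3 counts or fewer in each day 2 library, was at least 23.9-fold higher in control neurons. Of the 34 later neurogenic genes, 21 rose and 1 fell. The zinc finger factors Myt1 and Myt1l, which repress other fates in neurons, rose by 3.75 ± 0.23 and 3.55 ± 0.34, Scrt1 by 3.43 ± 0.17, Ebf1 by 2.27 ± 0.20 and Ebf3 by 1.82 ± 0.25. Insm1 fell by 0.61 ± 0.17 with overlapping libraries, and its adjusted p was between 0.023 and 0.0302 without day 2 library 3, control library 1 or control library 3.

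The Notch pathway, by which new neurons hold their neighbours back as progenitors, split by ligand. Of its 31 genes 10 rose and 7 fell. Dll4 fell from 11.6, 15.6 and 9.87 to 1.28, 2.16 and 2.25 CPM (-2.71 ± 0.24, adjusted p = 2.22e-09), while Dll3 and Jag2 rose by 1.40 ± 0.25 and 1.46 ± 0.16, and Dll1, with 49.5 ± 6.19 and 42.9 ± 14.6 CPM, did not pass the test (adjusted p = 0.369). Among targets, Hes1, whose groups overlapped, and Id3 fell by 0.66 ± 0.20 and 1.55 ± 0.19 and Hey1 rose by 1.39 ± 0.17. Id3 is also counted in the BMP and TGF-beta list below. The call of Hes1 was lost without any 1 of 4 libraries, with an adjusted p of up to 0.0515. Hes5 was at 49.3, 43.3 and 22.6 CPM in day 2 progenitors and at 24.1, 28.8 and 18.1 CPM in control neurons (adjusted p = 0.0137; 0.000147 without day 2 library 3), and its exons overlap another gene. Numbl, an inhibitor of Notch, rose by 1.72 ± 0.15.

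Neural progenitor genes fell in 18 of 44 cases and rose in 6, with a median of -0.86, or -0.66 with genes at 3 counts or fewer set at their bound. Pax6, a factor of ventral and intermediate progenitors, fell from 122, 92.5 and 87.5 to 6.49, 11.2 and 8.35 CPM (-3.54 ± 0.21, adjusted p = 3.63e-12), and Sox1 from 41.9, 42.5 and 62.1 to 7.13, 12.3 and 8.87 CPM (-2.37 ± 0.19). For both genes every day 2 library lay above every control library. Nkx2-9, of the most ventral progenitors, fell by 3.73 ± 0.38, Dbx1, of V0 progenitors, by 4.15 ± 0.34, and the RNA binding protein Lin28b, a marker of early progenitors, by 2.54 ± 0.26. Sox2 fell by 0.87 ± 0.14 only, to 39.7 ± 5.41 CPM. Olig2, the determinant of MN progenitors, was at 102, 93 and 80.2 CPM on day 2 and at 45.5, 116 and 58.1 CPM in control neurons (adjusted p = 0.333), and control library 2 was above all day 2 libraries. Without that library Olig2 passed the test as lower (log2 fold change -0.82, adjusted p = 0.00446). Control library 2 was also the highest of all libraries for the intermediate filament nestin (Nes), at 159.6 ± 8.51 CPM on day 2 and 196, 372 and 145 CPM in control neurons (adjusted p = 0.0332; 0.0014, as higher, without control library 3). Fabp7 (BLBP) and Sox9, genes of radial glia, rose by 4.30 ± 0.42 and 2.16 ± 0.21. Summed over the 22 pan-progenitor genes, of which 21 were tested, the level was 2172 to 2597 CPM in day 2 libraries and 1588 to 2642 CPM in control libraries. In RNA from whole cultures, fewer cells of a kind and less RNA of a gene per cell cannot be told apart.

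Cell cycle genes fell almost throughout. All 38 genes of mitosis (G2/M) and 37 of 38 genes of DNA replication (G1/S) fell, with medians of -1.57 and -1.64, and 9 and 6 of them passed both thresholds. Ccnd2, the D-type cyclin of neural progenitors, fell from 1032, 911 and 822 to 101, 162 and 85.9 CPM (-2.99 ± 0.19, adjusted p = 1.29e-11), and Ccnd1 by 2.33 ± 0.23, although its exons overlap another gene. Cdk1, the mitotic kinase, went from 278, 272 and 191 to 77.8, 78.2 and 89.2 CPM (-1.59 ± 0.15). Mki67 fell by 1.74 ± 0.32, from 363, 292 and 271 to 73.7, 156 and 47.4 CPM, and was highest among the control libraries in library 2. The replication helicase subunit Mcm6 fell by 1.78 ± 0.20 and the clamp Pcna by 1.85 ± 0.18. Among 13 inhibitors and exit genes, 4 rose and 3 fell. The CDK4/6 inhibitor Cdkn2d went from 19.6, 21.8 and 15.7 to 76.9, 55.2 and 101 CPM (2.03 ± 0.17) and Cdkn1b (p27) rose by 0.70 ± 0.14.

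Promoters of these genes are shown because the 2 phases differ in the short elements near their starts. The cell cycle homology region (CHR, letters TTTGAA) and the CCAAT box are known elements of G2/M promoters, and E2F sites (TTTGGCGC or TTTCCCGC) of G1/S promoters. RefSeq promoters (GRCm38.p6, 250 bases before to 50 after a start, both strands searched) were at hand for 31 genes of each phase. The CHR letters were in 23 of 31 G2/M promoters (74.2%), in 4 of 31 G1/S promoters (12.9%) and in 18.1% of all 27025 promoters. CCAAT was in 24 of 31 (77.4%), 21 of 31 (67.7%) and 37.9%, and TTTGGCGC in 0, 6 of 31 (19.4%) and 0.537%. TTTCCCGC was in 0 and 5 of 31 (16.1%), against 1.11% of all. These letters mark matches, not binding. The 120 bases before the start of 3 G2/M genes and 1 G1/S gene follow, on each gene's own strand, with CHR and CCAAT letters in capitals for Cdk1 (chr10:69352913-69353032, minus strand), Cdc20 (chr4:118437344-118437463, minus) and Top2a (chr11:99024190-99024309, minus), and E2F letters in capitals for Mcm6 (chr1:128359706-128359825, minus). ATTGG and TTCAAA are CCAAT and TTTGAA on the other strand.
Cdk1: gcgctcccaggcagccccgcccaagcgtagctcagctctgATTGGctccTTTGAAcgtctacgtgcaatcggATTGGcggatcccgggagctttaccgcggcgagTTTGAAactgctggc
Cdc20: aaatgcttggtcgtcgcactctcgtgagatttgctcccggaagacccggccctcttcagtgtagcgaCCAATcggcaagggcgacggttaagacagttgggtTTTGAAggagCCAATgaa
Top2a: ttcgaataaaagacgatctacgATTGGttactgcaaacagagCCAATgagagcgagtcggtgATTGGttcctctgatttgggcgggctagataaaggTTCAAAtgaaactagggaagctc
Mcm6: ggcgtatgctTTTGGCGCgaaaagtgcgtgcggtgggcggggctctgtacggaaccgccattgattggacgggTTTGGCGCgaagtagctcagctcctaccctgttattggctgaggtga
Cdc20 and Top2a fell by 1.29 ± 0.18 and 1.42 ± 0.24.

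Of the Hedgehog pathway's 18 genes 12 fell and 2 rose. All 4 targets, which report the activity of the pathway, fell, with a median of -2.25, and both groups had been given SAG from day 0. Gli1 was at 111, 108 and 103 CPM in day 2 progenitors and at 9.28, 17.5 and 8.05 CPM in control neurons (-3.21 ± 0.26, adjusted p = 5.3e-10). Hhip, which binds the ligand, fell by 2.87 ± 0.28, and the receptor Ptch1 by 1.62 ± 0.21. Among the transducers 7 of 8 fell, Gli3 and Gli2 by 3.07 ± 0.27 and 2.44 ± 0.35 and Smo, the protein that SAG binds, by 0.87 ± 0.15, while Sufu was at 34.7 ± 9.35 and 29.6 ± 11.5 CPM (adjusted p = 0.374). For Gli2 the control levels were 2.44, 7.82 and 2.17 CPM, highest in library 2. The genes that rose act in sending the signal. Shh itself went from 0.606, 2.46 and 5.97 to 31.4, 24 and 26.1 CPM (3.16 ± 0.45, adjusted p = 2.93e-06, with exons that overlap other genes), and Disp2, of the family that releases Hedgehog ligands, from 4.84 ± 2.33 to 96.8 ± 28.8 CPM (4.32 ± 0.26). Shh also belongs to the 7 floor plate genes, of which 6 rose, among them Spon1 (2.34 ± 0.25). Their summed level was 153, 194 and 398 CPM in the day 2 libraries and 463 to 610 CPM in the control libraries. Foxa2, the floor plate determinant, was at 19.7, 20.1 and 65.7 CPM on day 2 and at 23.6, 21.9 and 21.2 CPM in control neurons (adjusted p = 0.129). The part of floor plate cells in the level of Shh was not tested.

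The retinoid pathway showed both directions, with 5 of 21 genes higher and 7 lower. Cyp26a1, the RA-degrading enzyme that RA itself induces, fell from 101, 100.5 and 129 to 7.42, 4.16 and 6.03 CPM (-4.22 ± 0.23, adjusted p = 7.9e-13), but Cyp26b1, another such enzyme, rose from 97.8 ± 20.1 to 232 ± 97.7 CPM (1.25 ± 0.26). The groups did not overlap for either gene. Rarb, an RA-induced receptor whose exons overlap another gene, fell by 0.54 ± 0.13, to 60.8 ± 6.01 CPM, and Rara rose by 1.15 ± 0.15. Rxrg rose from 0.168, 0.433 and 0.25 to 26.9, 23.8 and 27.6 CPM. The carrier Crabp2, which delivers RA to its receptors, fell by 1.35 ± 0.20, while Crabp1 was at 395 ± 83.7 and 414 ± 123 CPM (adjusted p = 0.818).

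The promoters of Cyp26a1 and Rarb are shown because both are known to hold RA response elements of the direct repeat type, and they lie at genes of the list that fell. Letters of a direct repeat with 5 bases between its repeats, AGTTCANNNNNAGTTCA, were in 7 of 27025 promoters (0.0259%), that of Cyp26a1 among them on the minus strand from base -32 to -16, and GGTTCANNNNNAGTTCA was in 2 (0.0074%), that of Rarb among them from base -53 to -37. The 120 bases before the start are given on the gene's strand with the repeats in capitals, for Cyp26a1 (chr19:37697688-37697807, plus strand) and Rarb (chr14:16575477-16575596, minus strand), from RefSeq for GRCm38.p6.
Cyp26a1: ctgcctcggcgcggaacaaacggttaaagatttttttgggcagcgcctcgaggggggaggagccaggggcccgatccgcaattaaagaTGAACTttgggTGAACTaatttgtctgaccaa
Rarb: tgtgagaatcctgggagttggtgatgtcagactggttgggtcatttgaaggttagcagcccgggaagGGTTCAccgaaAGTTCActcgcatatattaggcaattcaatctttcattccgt

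**Figure D4:**
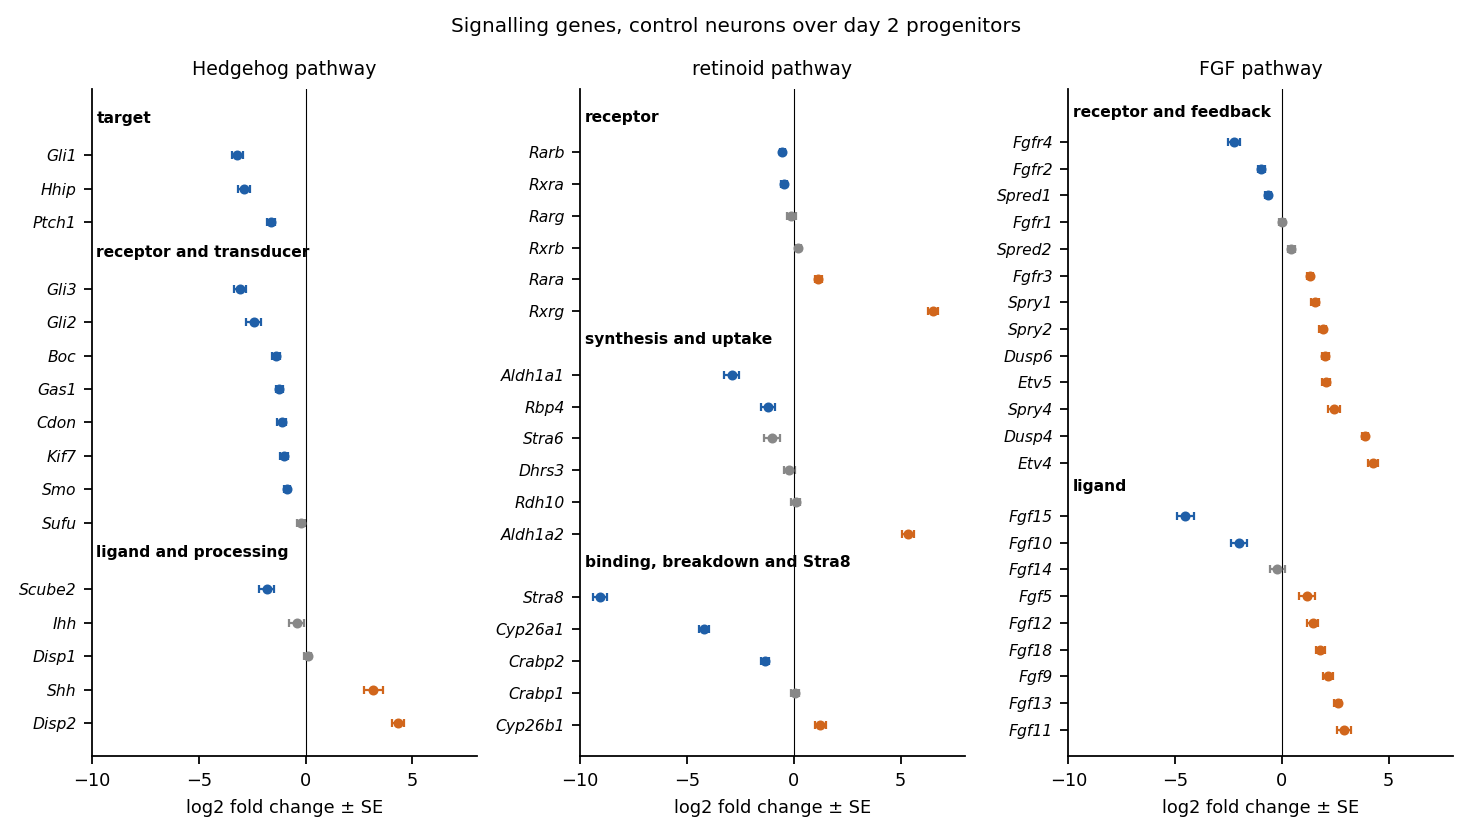
Log2 fold change of control neurons over day 2 progenitors with its SE (x axis) for genes of the Hedgehog, retinoid and FGF pathways (y axis) whose mean reached 0.4 CPM in a group, ordered by role. Orange, blue and grey points were higher, lower or neither at an adjusted p under 0.01; the Hedgehog targets Gli1 and Hhip lie at -3.21 and -2.87 and the FGF feedback genes Dusp4 and Etv4 at 3.88 and 4.26.

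FGF signalling genes rose in 14 of 25 cases and fell in 5. Of the 13 receptor and feedback genes 8 rose and 3 fell, the receptors Fgfr4 and Fgfr2 by 2.23 ± 0.28 and 0.96 ± 0.16 and the inhibitor Spred1 by 0.65 ± 0.15. The other feedback genes named here rose, with no overlap of the groups. Dusp4, a phosphatase of MAP kinases, was at 18.3, 21.3 and 20.1 CPM in day 2 progenitors and at 302, 304 and 271 CPM in control neurons (3.88 ± 0.13, adjusted p = 2.34e-15). Etv4 and Etv5, ETS factors of the response, rose by 4.26 ± 0.25 and 2.06 ± 0.19, Dusp6 by 2.03 ± 0.17, and the inhibitors Spry2 and Spry4 by 1.91 ± 0.16 and 2.42 ± 0.28. Etv4 is the motor pool factor named above and is counted in both lists. The receptor Fgfr3 rose by 1.32 ± 0.13, and Fgfr1 was at 89.7 ± 14.6 and 89.2 ± 13.1 CPM. Of the secreted ligands Fgf9 rose by 2.15 ± 0.23 and Fgf10 fell by 2.01 ± 0.37. Fgf15, a ligand that Hedgehog signalling induces in neural progenitors, fell by 4.53 ± 0.40, with exons that overlap another gene.

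Of 39 Wnt pathway genes 15 fell and 5 rose. The frizzled receptors Fzd7 and Fzd5 fell by 1.10 ± 0.19 and 2.12 ± 0.30, Wnt7a rose by 1.01 ± 0.17, and the target Axin2 was at 18.8 ± 2.32 and 19.3 ± 3.79 CPM (adjusted p = 0.895). Of 27 genes of the BMP and TGF-beta pathways 7 rose and 6 fell. Gdf11, a ligand known to act on Hox genes along the axis, rose by 2.02 ± 0.18, Bmp7 by 1.05 ± 0.20 and the antagonist Chrd by 2.27 ± 0.19, and Bmp2 and the antagonist Fst fell by 3.72 ± 0.47 and 3.42 ± 0.49.

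Of the 15 genes of paralog groups 1 to 5, 7 rose and 2 fell, of 8 genes of groups 6 to 8, 6 rose and none fell (1 without day 2 library 3), and of 9 tested genes of groups 9 to 13 only Hoxb9 rose (1.45 ± 0.31). The medians of the first 2 sets were 0.46 and 2.11. Hoxd1, of paralog group 1, rose by 2.05 ± 0.32. Hoxb1, of the same group, fell from 2.19, 2.5 and 8.31 to 0.0643, 0.385 and 0.187 CPM (-4.37 ± 0.56, adjusted p = 6.34e-07), and was highest in day 2 library 3. In groups 4 and 5, Hoxc5 rose from 28.9, 30.2 and 41.1 to 204, 192 and 191 CPM (2.55 ± 0.16, adjusted p = 5.91e-12), Hoxc4 by 1.84 ± 0.13, Hoxa5 by 1.74 ± 0.15 and Hoxb5 by 1.85 ± 0.20. Hoxb6, Hoxb7 and Hoxb8 rose by 2.08 ± 0.20, 2.29 ± 0.19 and 2.08 ± 0.16, and Hoxb8 was already at 40.0, 51.4 and 34.6 CPM on day 2. Of groups 2 and 3, Hoxb3 rose by 0.52 ± 0.16. Its call was lost without day 2 library 1 or 3 or control library 1 or 3 (adjusted p up to 0.0609). It was also lost with DESeq2's size factors in edgeR, library totals only, a stricter count filter or a replicate block (up to 0.0133). With only the 6 libraries its adjusted p was 0.0648. Hoxa2 was at 30.2 ± 1.58 and 32.5 ± 5.37 CPM (adjusted p = 0.562).

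**Figure D5:**
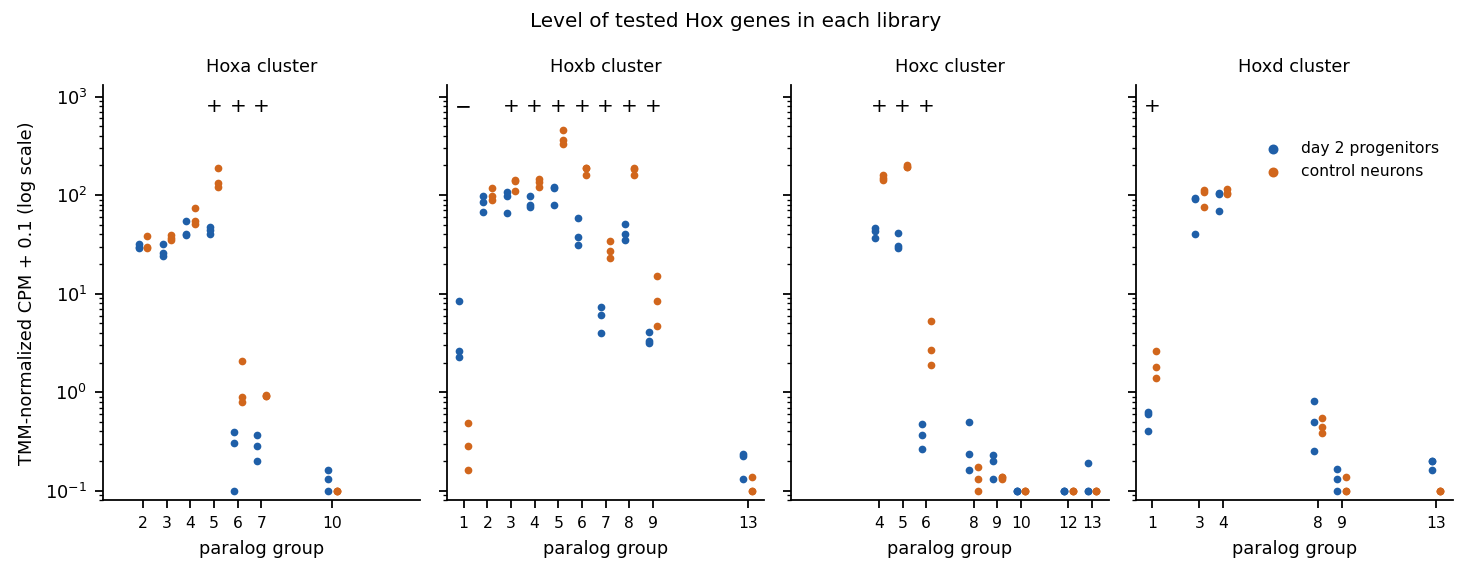
TMM-normalized CPM + 0.1 on a log axis (y) of tested Hox genes in each library, by paralog group (x axis) and cluster (panels). Blue points are day 2 progenitors and orange points control neurons, and + and − mark genes higher or lower at an adjusted p under 0.01; Hoxb1 is marked lower.

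Hoxc6, the gene whose transgenic copy the control line carries, was at 0.168, 0.266 and 0.375 CPM in day 2 progenitors, which came from another line, and at 5.17, 2.58 and 1.8 CPM in control neurons (3.54 ± 0.37, adjusted p = 3.19e-08). Counts cannot tell the transgene from the endogenous gene here. Its neighbour Hoxc8 had 0.135, 0.399 and 0.0625 and 0.0321, 0 and 0.0748 CPM (adjusted p = 0.0182; 0.00289, as lower, without day 2 library 3), and Hoxa6 and Hoxa7, the latter overlapping an antisense gene, rose to 1.15 ± 0.706 and 0.822 ± 0.0133 CPM. Of the TALE cofactors, which bind DNA together with Hox proteins, 7 of 9 rose and 1 fell. Meis3 rose from 30.7, 36.2 and 27.9 to 214, 214 and 263 CPM (2.87 ± 0.15), Pbx3 by 1.98 ± 0.14 and Meis1 by 1.12 ± 0.12, while Pbx2 fell by 0.49 ± 0.11.

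Several exchanges of subunits and splicing factors known from neuron birth were seen at the level of RNA. In the BAF chromatin remodeling complex, the actin-related subunit Actl6a of progenitors fell by 0.68 ± 0.12, with exons that overlap another gene, and its neuronal counterpart Actl6b rose from 1.15, 1.1 and 0.5 to 53.6, 40.1 and 54 CPM (5.75 ± 0.24, adjusted p = 1.3e-14). Ss18 fell by 0.78 ± 0.15 while Ss18l1 (CREST) rose by 2.36 ± 0.18, and Phf10 fell by 0.86 ± 0.12 while Dpf1 and Dpf3 rose by 2.64 ± 0.14 and 3.68 ± 0.21. The progenitor subunit Dpf2 rose by 0.70 ± 0.15. Rest, the repressor of neuronal genes, fell from 25.4, 19.5 and 19.3 to 6.97, 6.05 and 6.66 CPM (-1.71 ± 0.19), and the splicing repressor Ptbp1 by 1.42 ± 0.23, with an overlap of exons. The activators of neuronal microexons Srrm3 and Srrm4 rose by 3.39 ± 0.19 and 2.08 ± 0.21, and Ptbp2 was at 142 ± 44.5 and 123 ± 12.1 CPM (adjusted p = 0.351; 0.00982, as lower, without day 2 library 3). Among 31 Polycomb and DNA methylation genes 15 fell and 8 rose. The replication-linked methylation factor Uhrf1 fell by 1.80 ± 0.24, the methyltransferase Dnmt3b by 1.99 ± 0.24, the Polycomb subunits Ezh2 and Cbx7 by 0.81 ± 0.15 and 1.81 ± 0.25, and Cbx8 rose by 1.35 ± 0.19.

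Host transcripts of microRNAs with known roles in this step also changed. Mir9-3hg, a host of miR-9, was at 0.168, 0.2 and 0.25 CPM on day 2 and at 22.1, 8.47 and 15.1 CPM in control neurons (6.17 ± 0.34, adjusted p = 8.85e-13), one of the 15 largest gains. Mir17hg, of the miR-17-92 cluster that promotes proliferation and that was chosen after its values were seen, was at 111, 76.5 and 11.6 and 11.4, 3.39 and 10.7 CPM (-2.96 ± 0.53, adjusted p = 5.34e-05). Day 2 library 3 lay close to control library 1. Mir124a-1hg, a host of miR-124 chosen in the same way, rose by 3.24 ± 0.55. Mature sequences from RefSeq are printed with the seed, bases 2 to 8, in capitals, for the arms that define these families. PolyA RNA reports the host transcripts, and mature microRNAs were not measured.
mmu-miR-9-5p: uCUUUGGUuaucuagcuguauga
mmu-miR-17-5p: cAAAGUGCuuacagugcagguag
mmu-miR-20a-5p: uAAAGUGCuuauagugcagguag
The miR-17 and miR-20a arms share their seed.

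Of the 30 tested genes of pluripotent cells 15 fell and 4 rose. The naive and core genes summed to 60.6 to 111 CPM in day 2 libraries and 9.06 to 19.8 CPM in control libraries. The 11 epiblast genes, of which 5 of 9 tested fell and 3 rose, summed to 559 to 683 and 224 to 287 CPM. Naive and core genes had a median of -2.88, or -1.44 when each gene with 3 counts or fewer in all libraries of a group was set at its bound. Pou5f1 (Oct4), whose exons overlap another gene, was at 0.438, 0.299 and 2.37 CPM in the day 2 libraries and had 0 counts in the control libraries, at least 9.6-fold lower. Zfp42 (Rex1) was at least 12.2-fold lower. Dppa5a, at 6.27, 5.76 and 6.71 CPM on day 2, fell by 5.08 ± 0.37, and Sall4, also a gene of early progenitors, went from 41.5, 49.5 and 80.2 to 5.04, 14.2 and 6.4 CPM (-2.74 ± 0.30). Genes of simple epithelium fell too. Krt8, Krt18, Epcam and Cdh1 fell by 3.15 ± 0.28, 3.48 ± 0.30, 4.30 ± 0.42 and 3.33 ± 0.40, and Cdh1 was at 17, 25.6 and 80.6 CPM in the day 2 libraries. The summed level of the 7 surface ectoderm genes, of which 5 were tested, was 53.2, 71.1 and 166 CPM on day 2. It was 7.93 to 11.0 CPM in control neurons, and day 2 library 3 was highest. The epidermal keratins Krt5 and Krt14 had 0 counts in every control library. Of the 7 genes, 2 were not tested and 1 tested gene had 3 counts or fewer in every library of both groups. The 2 keratins were among these, so the test could not call them lower.

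Of the 34 genes of interneuron classes 10 rose and 4 fell, and together they summed to 27.0 to 37.9 CPM in day 2 libraries and 110 to 112 CPM in control libraries. Of the 9 genes of the V2 class 3 rose, all past both thresholds, and 3 fell, none past both. The largest fitted log2 fold change in the class was 5.42, a rise larger than that of Lhx3. In the class, 1 gene had 3 counts or fewer in each library of a group. Lhx3, which MNs also express, was at 67.8, 68.4 and 68.9 CPM in control libraries, in which the V2 class summed to 75.0 to 75.3 CPM, while the V2 genes Gata3, Bhlhe22 and Foxn4 fell by 1.97 ± 0.52, 1.60 ± 0.45 and 1.09 ± 0.34. Their calls rested on single libraries: that of Gata3 was lost without day 2 library 1 or control library 3 (adjusted p up to 0.0201), that of Bhlhe22 without day 2 library 1 or 2 or control library 1 or 2 (up to 0.0266) and that of Foxn4 without day 2 library 2 or 3 or control library 1 or 3 (up to 0.0518). All 5 of the V1 class rose (3 without day 2 library 2 or control library 1), En1, the V1 determinant, to 0.61, 0.347 and 0.861 CPM in the control libraries, at least 6.17-fold higher, and Lhx1, which MNs also express, from 2.54 ± 0.128 to 14.2 ± 1.73 CPM. For V3, Sim1 went from 0.066 ± 0.0581 to 0.461 ± 0.241 CPM (2.77 ± 0.63, adjusted p = 0.0118 without control library 1). Evx1, of V0 interneurons, was at 0.404, 1.5 and 0.937 and 0.578, 0.616 and 0.936 CPM (adjusted p = 0.399). Whether these markers contributed to the neuronal lists was not tested.

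Genes for making ribosomes fell as well. Of 21 ribosome biogenesis genes 19 fell and none rose (median -1.26). Npm1 went from 3968, 3394 and 1712 to 448, 468 and 348 CPM (-2.84 ± 0.23, adjusted p = 4.06e-10) and Ncl, the nucleolar protein nucleolin, from 1325, 969 and 1311 to 249, 396 and 187 CPM (-2.12 ± 0.21). Npm1 was lowest on day 2 in library 3, and still every day 2 library was above every control library.

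Some of the largest differences were in genes whose levels also varied among the Hox-induced groups of the series. Grb10, an imprinted adaptor protein of insulin signalling, was at 743, 741 and 947 CPM in day 2 progenitors and at 23.1, 32.9 and 18.5 CPM in control neurons (-5.03 ± 0.24). Its group mean was 23.6 CPM in iHoxc6 neurons, which share the line and the run of the controls. It was 401 CPM after induction of Hoxc8, 69.1 CPM after that of Hoxc9 and 223 CPM after that of Hoxc10. Those neurons were of the same day but from other lines and other runs. All 4 induced groups had received 3 µg/ml Dox for 48 h, so line, run and induced gene cannot be told apart. Igf2 (37.2 ± 2.66 to 5.19 ± 1.5 CPM, with exons that overlap other genes) and H19 (45.7 ± 25 to 982 ± 510.5 CPM), neighbours at an imprinted locus, had means of 16.1, 57.0, 37.0 and 122 CPM, and of 915, 179, 724 and 423 CPM, in the same 4 groups. Peg13, another of the 15 largest gains, was at 3.38 ± 1.61 CPM on day 2 and at 335 ± 21.8 CPM in control neurons, and between 82.1 and 361 CPM in the iHox groups. Hprt, the locus of the transgene, fell from 6.64, 5.72 and 7.15 to 1.25, 2.23 and 1.35 CPM and was at 8.26 to 32.5 CPM in the iHox groups.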

How the data were processed

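RNA of 6 cultures was sequenced (poly-A selected, stranded library kit). The authors aligned reads to mm10 with STAR (2.7.0c), counted them per RefSeq gene with featureCounts and deposited whole-number counts; the strand setting of the counting was not stated. Symbols and coordinates were added from RefSeq GRCm38.p6. edgeR (4.0.16, R 4.3.3) with TMM factors was fitted to all 18 libraries of the series, which share one estimate of the spread, and control neurons were contrasted with day 2 progenitors by the quasi-likelihood test with Benjamini-Hochberg adjustment. Genes counted at least 1 time in the 12 libraries of Hox-induced neurons were tested. SE is the log2 fold change divided by the square root of F. Exons overlapping another gene by at least 20% were marked.

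Named genes are members of the gene lists, the 15 largest rises and 15 largest falls past both thresholds with at least 10 CPM and no overlap of groups, and the 5 most abundant genes of each group. Other genes were chosen after their values were seen, as said beside them. Members and lists were chosen with earlier results of these data known. On simulated data 99.5% of 200 genes changed by log2 3 were recovered among 20446 genes, with 1 other call. The simulated counts had the fitted spread, and only genes of at least 1 CPM were changed. They held no effect of line or run and no library unlike its replicates, so this share does not measure recovery in the real data. DESeq2 (1.42.0), other scalings, filters, libraries and a replicate block were tried. Some members of the lists are not reported here by name, in the text or the plots.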

Additional observations from a re-analysis of the deposited data

How the results depend on the processing

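All named genes that passed the test kept their direction under every alternative run. Of 3628 comparisons of single genes with an alternative, 3524 kept direction and side of the threshold, 68 lost the call, 14 gained one and 22 changed sign, all 22 in genes that did not pass the test. With glmTreat against a log2 fold change of 2, 739 genes were higher and 319 lower, and with a log2 fold change above 1 as threshold 2977 and 2988. DESeq2 gave 1353 higher and 1095 lower at both thresholds. Leaving out 1 library in turn gave 1316 to 1472 higher and 1106 to 1255 lower genes.

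When only the 6 libraries were fitted, with fewer samples to estimate the spread, the number of lower genes at the 0.01 threshold was 2759 against 4441, and fewer list members passed: lower genes numbered 4 for axon guidance, 1 for proneural and neurogenic genes, 3 for Notch, 11 for neural progenitor, 4 for retinoid, 0 for TALE cofactors, 9 for chromatin regulators and 2 for interneuron genes, and higher genes 1 for pluripotency and 3 for floor plate. Leaving out 1 library gave 1 to 4 lower proneural and neurogenic genes (1 without day 2 library 3, control library 1 or control library 3, and 4 without control library 2), 4 to 9 lower Notch genes (4 without control library 3), 1 to 2 lower TALE genes (2 without day 2 library 2 or control library 2), 1 to 3 higher pluripotency genes (1 without day 2 library 1 or control library 3, 2 without day 2 library 2 or control library 1) and 2 to 3 lower interneuron genes (2 without day 2 library 1 or 2 or control library 1 or 3).

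2 alternatives were chosen after seeing the data. Without both day 2 library 3 and control library 2, 5 proneural and neurogenic and 2 TALE genes were lower. Without the mitochondrial genes and 2 abundant genes lacking a symbol, 2 pluripotency genes were higher. Among the other alternatives, 2 pluripotency genes were higher with DESeq2's size factors in edgeR, and of the genes near 0, 2 in day 2 progenitors and 12 in control neurons had 0 counts throughout, and 0 of either set reached 10 CPM in the other group.

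The labels number the replicates of both groups, but same-numbered libraries did not deviate together (correlations of their deviations from group means 0.276, -0.442 and -0.348), so the numbers were not taken as pairs. With a replicate block 1390 genes were higher and 1153 lower at both thresholds, and 2 pluripotency genes were higher.

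Sign changes were those of Axin2 (-0.014 with library totals only, and -0.069 to 0.20 with 1 library left out), Chrna3 (-0.33 to 0.0043), Crabp1 (-0.22 to 0.20), Evx1 (-0.80 to 0.034), Nkx6-1 (-0.20 to 0.29, and -0.017 without both libraries), Hoxa2 (-0.041 to 0.18, and -0.059 without both), Foxa2 (-0.98 to 0.16, and 0.17 without both), Sufu (-0.59 to 0.0088) and Fgfr1 (-0.14 to 0.13, 0.0055 without both, 0.017 with only the 6 libraries, and 0.00045 with genes at 1 count in any of the 18 libraries). The cause was not tested.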

Other observations

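Cholesterol synthesis genes rose in 14 of 19 cases and 1 fell, with a median log2 fold change of 0.81, and none passed both thresholds. Squalene synthase, Fdft1, the first enzyme committed to sterols, went from 87.4, 99.9 and 149 CPM in the day 2 libraries to 344, 369.6 and 359.9 CPM in the control libraries (1.68 ± 0.18, adjusted p = 4.72e-08). The exception was the isomerase Idi1, which fell by 1.06 ± 0.21. Among glycolysis genes 6 of 19 rose and 3 fell (1 without day 2 library 3). The neuronal enolase Eno2 rose by 2.90 ± 0.30, the hexokinase Hk1 by 2.57 ± 0.20 and the lactate dehydrogenase subunit Ldhb by 1.46 ± 0.13, while Eno1, Hk2 and the glucose transporter Slc2a1 fell by 0.80 ± 0.24, 0.95 ± 0.22 and 1.69 ± 0.23.

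Of 9 p53 target genes 5 fell and none rose. Without control library 1, 3 fell and Cdkn1a rose. Ccng1 went from 836, 661 and 316 to 152, 136 and 176 CPM (-1.97 ± 0.25), Eda2r fell by 1.97 ± 0.28 and Mdm2 by 0.76 ± 0.19 (adjusted p = 0.013 without day 2 library 1 and 0.0142 without control library 1). The inhibitor Cdkn1a (p21) was at 80.3 ± 6.4 and 119 ± 26.3 CPM (adjusted p = 0.0128; 0.00601 without control library 1). Of 9 ATF4 targets 5 fell, the serine synthesis enzymes Psat1 and Phgdh by 0.95 ± 0.16 and 0.66 ± 0.18 (adjusted p of Phgdh 0.0172 without day 2 library 3 and 0.0268 without control library 3), and Ddit4 and Ddit3 rose by 1.41 ± 0.22 and 1.28 ± 0.20. The immediate early gene Jun rose by 2.16 ± 0.16.

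At a level of at most 3 counts in each library of a group, 61 genes were near 0 in control neurons and 38 in day 2 progenitors. A mean of at least 1 CPM in the other group was required, and a passed test was not. None of either set had a mean of 10 CPM in the other group. These genes were chosen after their values were seen. Zscan4c, of a cluster expressed in a small share of embryonic stem cells, was at 7.14, 6.22 and 2.22 CPM on day 2 and at least 48.1-fold lower in control neurons, but it is nearly identical to other copies and its value is uncertain. Trim6 was at least 76.7-fold lower. In the other direction, the extracellular matrix gene Tnr was at least 73.4-fold higher and the somatostatin receptor Sstr1 at least 59.1-fold higher.

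By length of the gene on the genome, with a mean of at least 1 CPM required, the 390 genes over 300 kb had a median log2 fold change of 0.95, and 31.8% of them were higher and 2.82% lower at both thresholds. Among 1441 genes of 100 to 300 kb the shares were 13.5% and 5.48%, among 3598 genes of 30 to 100 kb 6.95% and 5.34%, among 4084 genes of 10 to 30 kb 5.75% and 4.87%, and among 3436 genes under 10 kb 7.68% and 4.13%. Over the autosomes and the X chromosome, medians ran from -0.35 on chromosome 13 to 0.13 on chromosome 7, and that of the 15 mitochondrial genes was -0.92.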
